A study of Rattus norvegicus with 9 samples.

Results

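The 30 genes described here code for neurotrophic factors and their receptors: 13 ligands and 17 receptor chains of the neurotrophin, GDNF, gp130 cytokine, insulin-like growth factor (IGF), hepatocyte growth factor (HGF) and neuregulin families. They were followed in the ventral part of the embryonic rat spinal cord, with and without a human SOD1 transgene. A probe set, the group of array probes that reports 1 transcript or gene, was taken as a member where the platform annotation gave it a single gene symbol equal to a listed gene. The rule itself uses no measured value. This gave 57 probe sets of 29 genes, out of 31042 probe sets and 14217 genes with 1 symbol; Artn (artemin) had no such probe set. Of these, 35 probe sets of 16 genes lay above the filter on dim probe sets (mean intensity near 17.3), and these were tested.

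Neurotrophic factors are mostly secreted proteins on which developing neurons depend for survival, axon growth and differentiation. Embryonic motor neurons are made in excess, and those that fail to obtain enough factor from muscle, glia or neighbouring neurons die during development. Each family signals through its own receptors: Trk kinases and p75 for the neurotrophins, Ret with a GFRα co-receptor for GDNF and its relatives, gp130 with its partner chains for CNTF and LIF, the IGF1 receptor for the IGFs, Met for HGF, and the ErbB kinases for neuregulins.

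The study used 9 Affymetrix rat arrays, each with RNA of 1 pool of 5 embryos at embryonic day 14. There were 4 pools with mutant human SOD1 (hSOD1, G93R; the name Roth in the titles), 4 pools with wild-type hSOD1 (Chan in the titles) and 1 negative control pool (SDneg). Human SOD1 codes for a superoxide dismutase, and mutations in it underlie inherited amyotrophic lateral sclerosis, in which motor neurons are lost. The labels state no promoter, line history, copy number or sex, and since each transgene came under 1 name, the mutation, the line and the insertion site cannot be told apart. The description of the control also calls its embryos positive, against its title. Replicate 1 of both transgenic groups and the control lack a tag, le2, that the other 6 titles carry and that no source explains. The pool is the replicate, and p-values measure the spread between pools.

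Levels are given as the deposited linear intensities, and differences are log2 differences after a pseudocount of 8.28, which understates the change of dim probe sets. Array medians lay between 31.0 and 33.9. The rat Sod1 probe set 1367641_at gave 2540.2, 2386, 2226 and 1963 for the mutant and 2139, 2442, 2299 and 2099 for the wild-type pools, against 1699 for the negative control; the control was the lowest of the 9 arrays. In bulk tissue, fewer cells of a type and less RNA per cell cannot be told apart. Of 7 measured motor neuron markers, 6 lay above the filter, and of 7 for ventral progenitors and floor plate, 4 did (Nkx6-1, Nkx6-2, Nkx2-2 and Irx3), while the defining markers Olig2, Shh and Foxa2 did not. Markers of blood (0 of 5) and of microglia and macrophages (0 of 8) all lay below it. The filter is set on the mean over the arrays, and 1 pool stood apart for blood. The summed blood markers read 141.3 in mutant pool 3, while every other array lay between 7.13 and 20.4. What part blood had in the member values of that pool was not tested. The 3'/5' ratio of the beta-actin control probes, a sign of RNA integrity and labelling, spanned 6.98 to 7.98 in mutant pools, 8.19 to 19.2 in wild-type pools and 6.66 in the control; the mutant and wild-type ranges did not overlap (exact permutation test, two-sided, p = 0.0286, which no 4 against 4 design can go below). The summed motor neuron markers spanned 3386 to 4831 in mutant pools and 3041 to 3828 in wild-type pools, with 3194 in the control. Prph made up most of this sum, averaging 2503 in mutant and 2316 in wild-type pools, with 1847 in the control. Of the 6 markers above the filter, 5 were nominally higher and 1 lower in mutant than in wild-type pools (median log2 difference 0.26). In both transgenic groups together, 2 of these 6 were nominally higher and 4 lower than in the control. The summed sensory ganglion markers (4 of 7 above the filter) spanned 3143 to 4748 in mutant pools and 2889 to 3273 in wild-type pools, with 3248 in the control. Sncg made up most of that sum, averaging 3476 in mutant and 2719 in wild-type pools, with 2968 in the control. All 4 sensory ganglion markers above the filter were nominally higher in mutant than in wild-type pools (median log2 difference 0.28). Over the 11 marker lists, 3 of 37 markers above the filter reached an unadjusted limma p of 0.05, all higher in mutant pools. They were Isl1 (motor neuron) and Runx1 and Sncg (sensory ganglion). Of all tested probe sets 4.93% reached it, and 0 of the 37 passed after adjustment. The actin ratio was also tried as a covariate. The motor neuron markers and, in less detail, neuronal and sensory ganglion markers are set beside the members below. What part the sensory ganglion markers have in the member values was not tested.

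Above the filter lay 6 ligands (Bdnf, Ntf3, Cntf, Igf1, Igf2 and Nrg1) and 10 receptor chains (Ntrk2, Ntrk3, Ngfr, Gfra1, Gfra2, Gfra3, Ret, Il6st, Igf1r and Igf2r). All probe sets of the other 13 genes on the array lay below it: the ligands Gdnf, Nrtn, Pspn, Lif, Clcf1 and Hgf, and the receptor chains Gfra4, Cntfr, Lifr, Met, Erbb2, Erbb3 and Erbb4. A dim reading on an array does not show that a gene was silent in the tissue. The plot of intensities by pool shows the 16 genes above the filter. The probe sets nearest the filter were Nrg1 1388258_at and Igf2 1367571_a_at inside it, with means over the 9 arrays of 21.2 and 21.5, and Bdnf 1368678_at and Cntfr 1394008_x_at outside it, with 15.2 and 14.9.

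**Figure D1:**
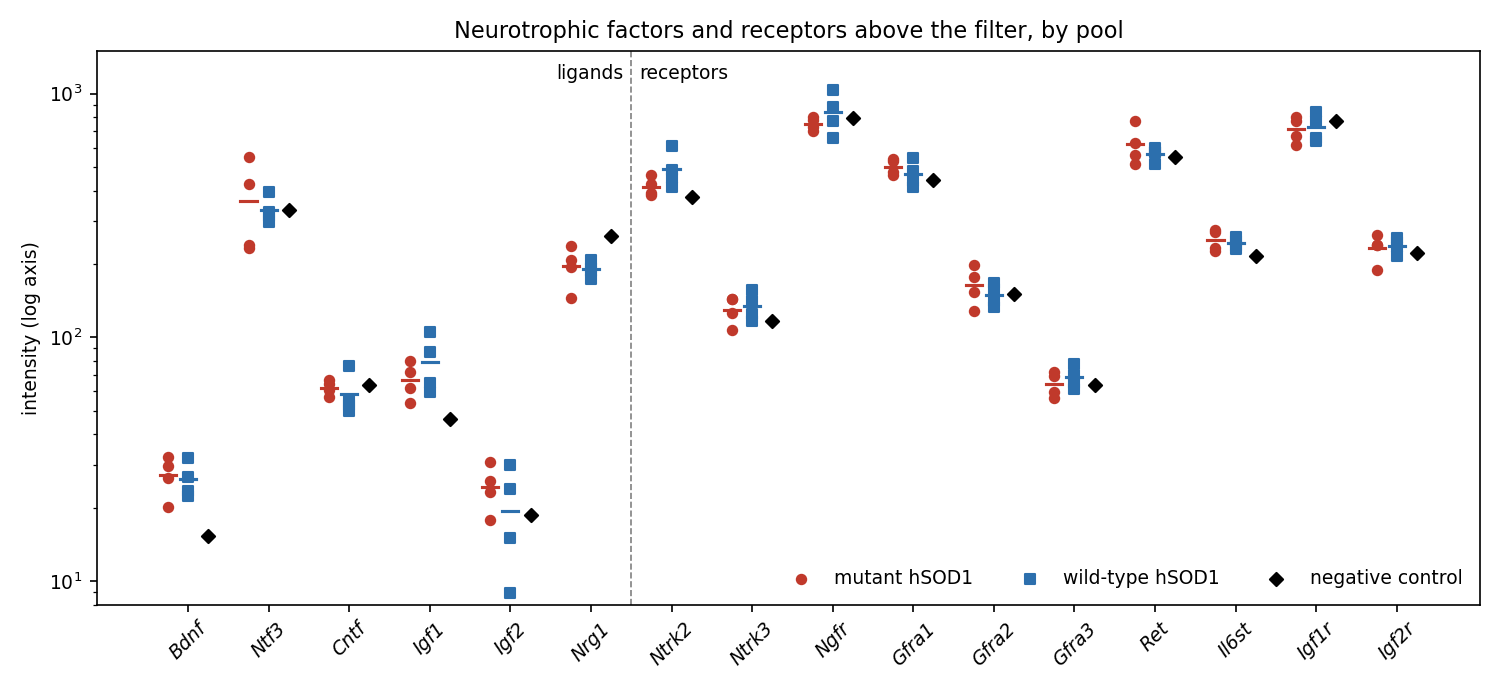
Intensity (log axis) of the brightest probe set of each of the 16 members above the filter, ligands left and receptors right, with 1 point per pool and a bar at the mean of each transgenic group. The mutant and wild-type pools overlap for every gene, and the control lies below all 8 transgenic pools for Bdnf, Igf1, Ntrk2 and Il6st and above them for Nrg1 1369783_a_at.

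No member passed the test between mutant and wild-type hSOD1 pools. A limma adjusted p under 0.05 was reached by 0 of the 35 member probe sets and by 3 of the 18625 tested (0.0161%). None passed at an unadjusted p of 0.05 either, against 918 of all tested (4.93%), and in none did the mutant and wild-type pools fail to overlap, against 550 of all tested (2.95%). The members' limma adjusted p-values ran from 0.929 to 0.990. With 1 probe set per gene, 9 of 16 members were nominally higher in mutant pools and 7 lower, with a median log2 difference of 0.03; over all 9868 genes, 54.3% were higher and the median was 0.01. Among ligands 5 of 6 were nominally higher (median 0.03) and among receptors 4 of 10 (median −0.03).

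These differences were also bounded. The 95% interval lay within 1.5-fold in both directions for 15 of the 16 genes at their brightest probe set and within 2-fold for all 16; over all 35 probe sets the counts were 29 and 34. The exception among the 16 was Igf2. As in all limma intervals here, the folds are of intensity plus the pseudocount, so changes of dim genes such as Bdnf can be larger. The fit also draws the spread of each probe set towards that of others of like intensity. For a variable gene such as Ntf3, with a within-group log2 SD of 0.44, this narrows the interval. When the actin ratio entered the fit as a covariate, 11 of the 16 differences turned their sign, and still 0 passed the threshold. The ratio did not overlap between the groups, so its part and that of the group cannot be told apart in this fit. Its highest value by far was that of wild-type pool 2 alone.

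**Figure D2:**
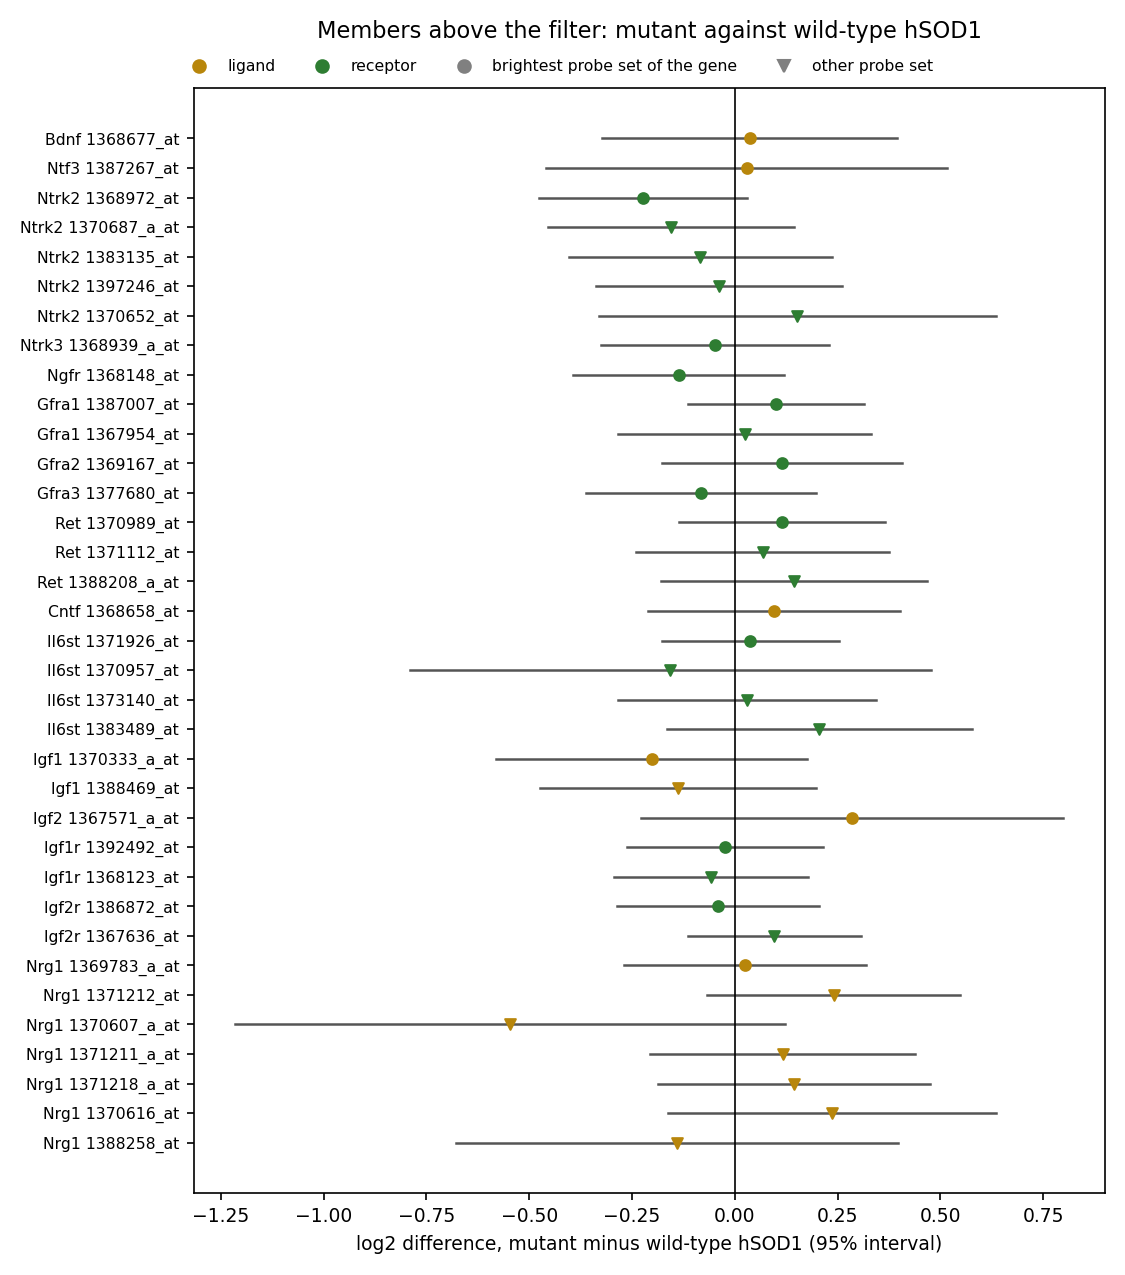
Log2 difference of mutant minus wild-type hSOD1 pools (point) with its 95% interval (line, limma) for the 35 member probe sets above the filter, 4 pools a group, coloured by role. Every interval includes 0, and the widest belongs to Nrg1 1370607_a_at.

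Among the neurotrophins, the ligand Bdnf, which acts through the TrkB kinase, had 26.4, 29.6, 20.2 and 32.2 in mutant pools, 23.4, 22.3, 32.1 and 26.8 in wild-type pools and 15.4 in the control. The mutant and wild-type pools covered the same range, with a log2 difference of 0.036 (95% interval −0.32 to 0.39), and the control lay under all 8. A second Bdnf probe set, 1368678_at, lay below the filter and did not show that order, with 9.91, 14.8, 16.8 and 16.3 in mutant pools, 11.7, 18.96, 2.99 and 22.8 in wild-type pools and 22.4 in the control.

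Ntf3, neurotrophin-3, the ligand of TrkC and a survival factor for proprioceptive sensory neurons, had 548, 239, 426 and 232 in mutant pools, 296, 314, 327 and 393 in wild-type pools and 332 in the control. The mutant pools fell on both sides of all 4 wild-type pools, with pools 1 and 3 above them and pools 2 and 4 below. The SD of the log2 values was 0.60 among mutant and 0.17 among wild-type pools; this probe set was named after its values were seen. The spread within groups stood at the 96.8th percentile of all tested probe sets, and the log2 difference was 0.029 (95% interval −0.46 to 0.52). Leaving out mutant pool 1 gave −0.20, and leaving out mutant pool 4 gave 0.20.

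Ntrk2 codes for TrkB, the BDNF receptor, whose transcripts include forms with and without the kinase part; the annotation used here does not say which form a probe set reads. Probe set 1368972_at had the smallest unadjusted p of all members between mutant and wild-type pools, with 390.4, 463, 424 and 384 in mutant pools, 484, 611, 414 and 453 in wild-type pools and 376 in the control. Mutant pools were mostly the lower ones but overlapped wild-type pools 3 and 4, and the log2 difference was −0.22 ± 0.12 (SE; limma unadjusted p = 0.0793, limma adjusted p = 0.929). With the actin ratio as a covariate the difference was −0.0079. Of the other 4 Ntrk2 probe sets, 3 were nominally lower in mutant pools too, while 1370652_at was nominally higher by 0.15 on the log2 scale.

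The other neurotrophin receptors showed no separation. Ntrk3 (TrkC) averaged 129.9 ± 17.2 in mutant and 135 ± 17.7 in wild-type pools (SD, n = 4 each), with 117 in the control. Ngfr, the p75 receptor that binds all neurotrophins, averaged 753 ± 47.2 in mutant and 839 ± 162 in wild-type pools (SD, n = 4 each), with 795 in the control; wild-type pool 2 was the highest of all 9 at 1039.

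In the GDNF family every ligand measured was below the filter. Gdnf itself read 1.55, 1.69, 4.91 and 3.76 in mutant pools, 2.36, 2.03, 2.65 and 2.36 in wild-type pools and 2.55 in the control. Nrtn, neurturin, averaged 11.9 ± 7.05 in mutant and 7.74 ± 4.92 in wild-type pools, with 7.84 in the control, and Pspn, persephin, averaged 6.38 ± 5.09 in mutant and 14.1 ± 8.51 in wild-type pools, with 22.3 in the control (SD, n = 4 each). At their brightest probe set the receptor chains were measured well above the filter, apart from Gfra4, the persephin co-receptor.

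Ret, the kinase shared by the family, had 774, 515, 628 and 558 in mutant pools, 576, 513, 598 and 575 in wild-type pools and 549 in the control. Mutant pool 1 was the highest array and the other pools overlapped, with a log2 difference of 0.11 (95% interval −0.14 to 0.36), which was 0.0019 without mutant pool 1. Gfra1, the GDNF co-receptor, had 529, 477, 537 and 465 in mutant pools, 439, 415, 481 and 543 in wild-type pools and 443 in the control. The groups overlapped almost fully (log2 difference 0.10, 95% interval −0.11 to 0.31). All 3 Ret probe sets and both Gfra1 probe sets were nominally higher in mutant pools, and none passed the test. The sign did not hold throughout: with the actin ratio as a covariate Gfra1 1387007_at turned to −0.016, and without the untagged transgenic arrays Ret 1371112_at turned to −0.085 and Ret 1388208_a_at to −0.0068.

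Gfra2, the neurturin co-receptor, had 177, 128, 198 and 154 in mutant pools, 133, 158, 141 and 167 in wild-type pools and 151 in the control. Mutant pools spanned a wider range that contained the wild-type pools and the control (log2 difference 0.11, 95% interval −0.18 to 0.41). A second Gfra2 probe set, 1375359_at, lay below the filter and had the lower mean in mutant pools. It averaged 9.58 ± 2.56 in mutant and 13.8 ± 3.43 in wild-type pools (SD, n = 4 each), with 12.7 in the control. Gfra3, the artemin co-receptor, averaged 64.2 ± 7.63 in mutant and 68.4 ± 7.22 in wild-type pools (SD, n = 4 each), with 63.999 in the control.

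Of the gp130 cytokines, Cntf, ciliary neurotrophic factor, averaged 62.2 ± 4.29 in mutant and 58.3 ± 11.96 in wild-type pools (SD, n = 4 each), with 63.6 in the control. Il6st, the gp130 chain that all these cytokines share, averaged 251 ± 25.3 in mutant and 244 ± 12.2 in wild-type pools (SD, n = 4 each), with 216 in the control, at its brightest probe set. This was the most tightly bounded member between mutant and wild-type pools, with a 95% interval of −0.18 to 0.25 on the log2 scale. Its other probe sets varied more. Probe set 1383489_at had 27.4, 22.3, 20.1 and 22.2 in mutant pools, 17.5, 13.4, 23.3 and 21.96 in wild-type pools and 31.4 in the control, which was the highest array. The mutant and wild-type pools overlapped there, with a log2 difference of 0.21 (95% interval −0.17 to 0.58) that was 0.00030 with the actin covariate. Probe set 1370957_at ranged from 68.6 to 213 in mutant pools and from 78.0 to 174 in wild-type pools, with 102 in the control, a spread within groups at the 99.1th percentile of all tested. Lif (leukaemia inhibitory factor), Clcf1 (a second ligand of the CNTF receptor), Cntfr (the CNTF-binding chain) and Lifr (the LIF receptor chain) were below the filter.

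Among the IGFs, Igf1 averaged 66.8 ± 11.6 in mutant and 79.1 ± 20.98 in wild-type pools (SD, n = 4 each), with a log2 difference of −0.20 (95% interval −0.58 to 0.18). Igf2, a fetal growth factor, had 17.8, 30.7, 23.1 and 25.6 in mutant pools, 23.8, 8.95, 30.004 and 14.96 in wild-type pools and 18.6 in the control. Wild-type pools 2 and 4 were the lowest arrays, while wild-type pools 1 and 3 fell among the mutant pools, and the log2 difference was 0.29 ± 0.24 (SE; limma adjusted p = 0.931). It was −0.039 with the actin covariate and 0.48 without the untagged arrays. This probe set lies close to the filter, and the other 3 Igf2 probe sets were below it.

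The IGF receptors showed no separation either. Igf1r, the signalling kinase, averaged 715 ± 86.2 in mutant and 728 ± 95.2 in wild-type pools (SD, n = 4 each), with 775 in the control. Igf2r, which takes up and clears IGF2, averaged 232 ± 31.02 in mutant and 238 ± 17.7 in wild-type pools (SD, n = 4 each), with 222 in the control.

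Nrg1 codes for neuregulin-1, which neurons present to Schwann cells, muscle and other cells in many isoforms, and it had the most probe sets above the filter (7) and the widest spread. Probe set 1370607_a_at had 36.4, 79.4, 114 and 138 in mutant pools, 162, 90.9, 99.2 and 167 in wild-type pools and 169.8 in the control. Mutant pool 1 was far below every other array, and the within-group spread stood at the 99.4th percentile of all tested. Its log2 difference of −0.55 ± 0.31 (SE; limma adjusted p = 0.929) had a 95% interval of −1.21 to 0.12, and it was −0.085 without the untagged transgenic arrays, mutant pool 1 and wild-type pool 1.

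Other Nrg1 probe sets went the opposite way in the same pools. Probe set 1371212_at had 293, 235, 187 and 177 in mutant pools, 168, 191, 190.2 and 188 in wild-type pools and 172 in the control, so that mutant pools 1 and 2 lay above the rest and mutant pools 3 and 4 among the wild-type pools. Probe set 1370616_at had 34.2, 31.2, 24.9 and 19.8 in mutant pools, 24.1, 15.5, 21.6 and 27.2 in wild-type pools and 22.2 in the control, again with mutant pools 1 and 2 highest. Their log2 differences were 0.24 (95% interval −0.068 to 0.55) and 0.24 (95% interval −0.16 to 0.63). The difference of 1371212_at was 0.061 without the untagged arrays, and that of 1370616_at was 0.043 with the actin covariate. Among the 8 members with several probe sets above the filter, the probe sets differed in sign between mutant and wild-type pools for 4; which isoforms they read was not examined here.

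The ErbB kinases through which neuregulin signals were below the filter, which is set on the mean over the arrays, and so were Hgf and its receptor Met, which guide and sustain some motor neurons. Erbb3, a neuregulin-binding chain, read 12.4, 17.4, 12.4 and 13.5 in mutant pools, 8.56, 17.7, 18.7 and 2.58 in wild-type pools and 14.8 in the control. Met read 6.64, 9.73, 12.5 and 5.87 in mutant pools, 3.25, 0.925, 6.14 and 0.941 in wild-type pools and 8.61 in the control. Hgf averaged 1.66 ± 1.09 in mutant and 4.92 ± 3.004 in wild-type pools (SD, n = 4 each), with 5.69 in the control. At such intensities the values carry no test.

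Against the single negative control, 0 of the 35 member probe sets passed the adjusted threshold in either transgenic group or in both together, as did 0 of all 18625 tested (0%). At an unadjusted limma p of 0.05, Bdnf 1368677_at was the 1 member in both groups together (3.12% of all tested), Igf2r 1367636_at the 1 in mutant pools (2.29%) and Igf1 1370333_a_at the 1 in wild-type pools (4.28%). These comparisons share the control pool, and its value alone can set their direction. In the fit the control was taken to vary like the transgenic pools.

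The 8 transgenic pools lay above the control for 7 of 35 member probe sets, where 9.19% of all tested did so, and below it for 5 of 35, where 10.5% did; on either side together these were 12 of 35 (34.3%), against 19.7% of all tested. Since the control was 1 pool and probe sets of 1 gene share their RNA, this share was not tested. The 7 were Bdnf 1368677_at, Ntrk2 1368972_at, Ret 1371112_at and 1388208_a_at, Il6st 1371926_at, Igf1 1370333_a_at and Igf2r 1367636_at. The 5 were Ntrk2 1370652_at, Il6st 1383489_at, Igf1r 1368123_at, and Nrg1 1369783_a_at and 1370607_a_at. Ntrk2 and Il6st had probe sets among the 7 and among the 5, and the plot of single pools against the control shows this gene by gene.

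**Figure D3:**
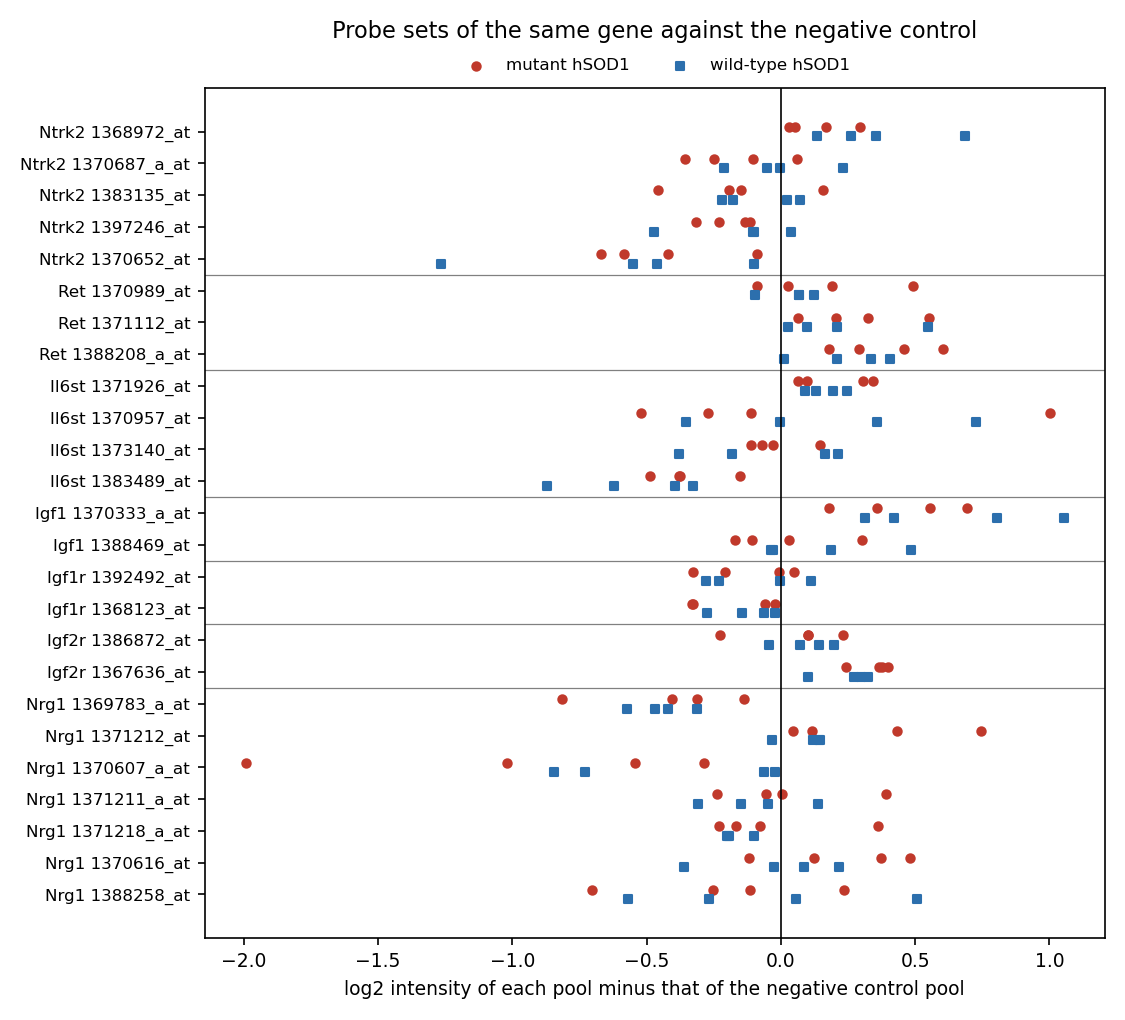
Log2 intensity of each mutant and wild-type hSOD1 pool minus that of the negative control pool, for the probe sets above the filter of 7 members with more than 1 of them. Ntrk2 and Il6st have probe sets with all 8 pools above 0 and others with all 8 below it, and mutant pool 1 of Nrg1 1370607_a_at lies farthest from the control.

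Bdnf had a mean of 26.6 ± 4.48 over the transgenic pools (SD, n = 8), against 15.4 in the control, a log2 difference of 0.55 ± 0.25 (SE; limma unadjusted p = 0.0469, limma adjusted p = 1.00). It ran from 0.30 with the higher pseudocount to 0.70 with the lower, and the unadjusted p was under 0.05 in 11 of 20 alternatives. Igf1 1370333_a_at had 71.9, 79.9, 61.6 and 53.5 in mutant pools and 59.5, 105, 87.1 and 64.8 in wild-type pools, against 46.3 in the control. All 8 lay above the control, but mutant pool 4 did so narrowly, and the log2 difference of both groups together was 0.55 (95% interval −0.022 to 1.12). In wild-type pools alone it was 0.65, and 0.34 with the actin covariate. The unadjusted p there was under 0.05 in 17 of 21 alternatives. Every alternative, for Bdnf too, kept the same single control pool, so these counts do not test its value. Both probe sets were named by their p in these same data. The second Igf1 probe set, 1388469_at, had 4 of 8 transgenic pools above the control.

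Igf2r 1367636_at had 208, 186, 205 and 203 in mutant pools and 197, 168, 193 and 189.9 in wild-type pools, against 156 in the control. Its pools were among the least variable of the members, and the log2 difference of both groups together was 0.30 (95% interval −0.020 to 0.61). The brighter Igf2r probe set, 1386872_at, gave 0.072 on the log2 scale, with 6 of 8 transgenic pools above the control.

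Of the members below the control, Nrg1 1369783_a_at had 236, 145, 195 and 208 in mutant pools and 186, 173, 193 and 208 in wild-type pools, against 261 in the control. The control was the highest of the 9, and mutant pool 1 the next, with a log2 difference of −0.43 (95% interval −0.87 to 0.0097). Ntrk2 1370652_at had 33.9, 36.5, 41.9 and 54.8 in mutant pools and 37.6, 40.6, 19.7 and 54.4 in wild-type pools, against 58.9 in the control. The pools numbered 4 in both groups came close to the control, and the log2 difference was −0.52 (95% interval −1.24 to 0.20). For Il6st 1383489_at, given above, it was −0.45 (95% interval −1.0029 to 0.10).

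With 1 probe set per gene, 12 of 16 members were nominally higher in both transgenic groups together than in the control (median log2 difference 0.08), where 49.1% of all genes were (median −0.0035); 4 of 6 ligands (median 0.07) and 8 of 10 receptors (median 0.08) were. For Nrg1 the choice of 1369783_a_at as the brightest turned on the control pool: over the 8 transgenic pools 1371212_at was the brighter, with a mean of 204 against 193.0, and it had 7 of 8 pools above the control (log2 difference 0.21). In mutant pools 11 of 16 were nominally higher (median 0.12) and in wild-type pools 10 of 16 (median 0.07). The 95% intervals were wider here: of the 35 probe sets, 15 were bounded within 1.5-fold and 29 within 2-fold.

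**Figure D4:**
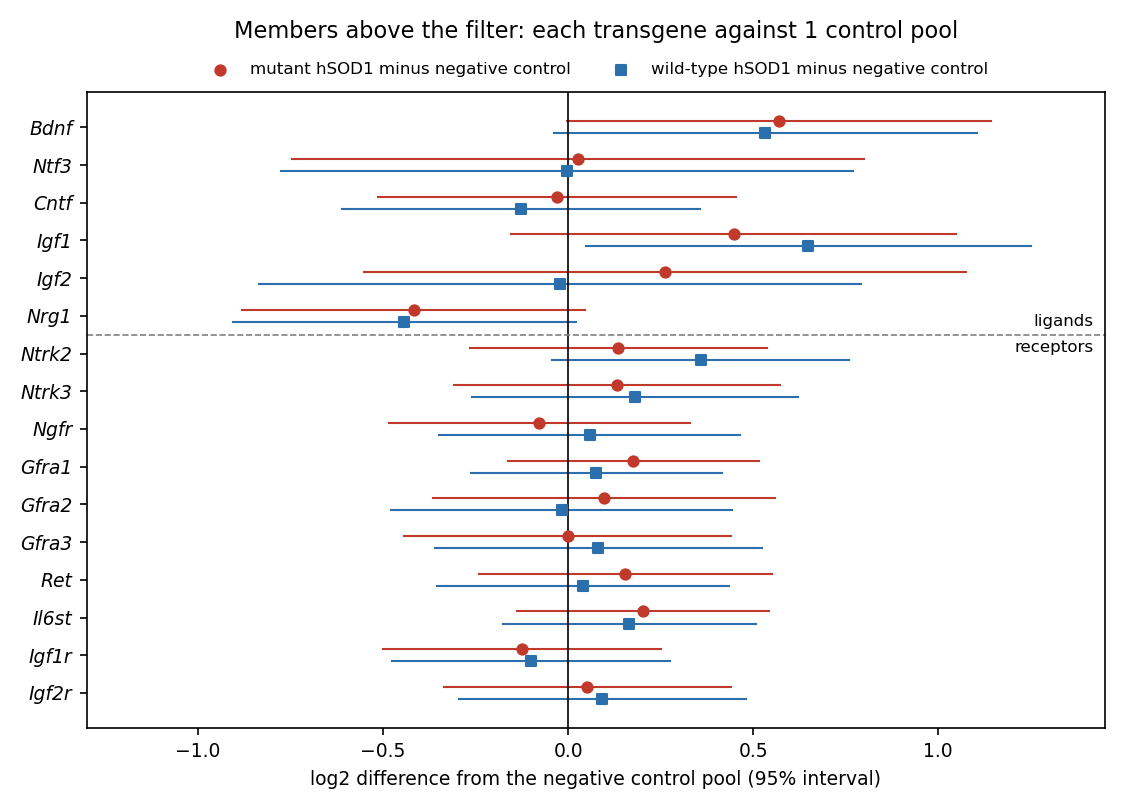
Log2 difference of each transgenic group from the single negative control pool with its 95% interval (limma), for the brightest probe set of the 16 members above the filter, ligands above the dashed line and receptors below. Of the 32 intervals only that of Igf1 in wild-type pools leaves out 0, and no difference passed after adjustment.

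The level of the 16 genes was also set beside a motor neuron index. This is the mean log2 value of the 6 motor neuron markers above the filter (Isl1, Isl2, Chat, Slc18a3, Slc5a7 and Prph). In bulk tissue a correlation with the index does not show which cells made a transcript. The comparison with the index, and the choice of Ntf3, Ret, Gfra1 and Gfra2 for values by pool, were made after the data were seen. The index stood at 8.75, 8.17, 8.43 and 8.21 for mutant pools, 7.94, 8.11, 8.21 and 8.39 for wild-type pools and 8.29 for the control. Over the 9 arrays Pearson's r was 0.80 for Ntf3 (Spearman's rho 0.78; exact permutation p = 0.00967 for r), 0.80 for Ret (rho 0.58; p = 0.0174), 0.76 for Gfra1 (rho 0.77; p = 0.0129) and 0.72 for Gfra2 (rho 0.77; p = 0.0279). After Benjamini-Hochberg adjustment over the 16 relations none passed 0.05: the exact permutation p for r became 0.0931 for Ntf3, Ret and Gfra1 and 0.112 for Gfra2, and for rho 0.0856 for Ntf3, Gfra1 and Gfra2 and 0.288 for Ret. These 4 had the highest r of the 16. The other 12 ran from −0.50 for Ntrk2 and −0.49 for Ntrk3 to 0.53 for Nrg1 and 0.58 for Il6st. By rank the set differed: Nrg1 1369783_a_at had a rho of 0.77 (adjusted exact permutation p = 0.0856), as high as Gfra1 and Gfra2 and above Ret. The further probe sets of these genes ran from −0.80 for Ntrk2 to 0.87 for Nrg1 1371218_a_at. Some of Ntrk2 ran against the index, with r of −0.80 for 1370687_a_at and −0.76 for 1383135_at, which were −0.30 and −0.33 without the 2 farthest arrays.

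Without the 2 arrays farthest from the median index (mutant pool 1 and wild-type pool 1), r was 0.75 for Ntf3, 0.76 for Ret, 0.83 for Gfra1 and 0.73 for Gfra2. After group means were removed it was 0.91, 0.80, 0.76 and 0.69 in the same order of genes, and over the 6 arrays with the le2 tag 0.75, 0.79, 0.94 and 0.75. Without mutant pool 1 it was 0.43 for Ret and 0.60 for Ntf3, their lowest values with 1 array left out. For Gfra1 and Gfra2 the lowest such values were 0.72 and 0.65, both without wild-type pool 1. The other Gfra1 probe set gave 0.51 and Ret 1371112_at 0.81. Ret 1388208_a_at gave 0.60, but 0.25 without mutant pool 1 and −0.23 both without the 2 farthest arrays and over the tagged arrays. Of all tested probe sets, 0.381%, 0.413%, 0.843% and 1.46% had a higher r than Ntf3, Ret, Gfra1 and Gfra2. The index correlated with a neuronal index at 0.46 and with a sensory ganglion index at 0.23. With the neuronal index, r was 0.65 for Ntf3, 0.34 for Ret, 0.35 for Gfra1 and 0.16 for Gfra2. With the sensory ganglion index it was −0.020, 0.23, 0.054 and 0.13 in the same order. Other members also ran with or against the neuronal index, with r of 0.72 for Igf2r 1386872_at and −0.78 for Ntrk2 1383135_at.

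**Figure D5:**
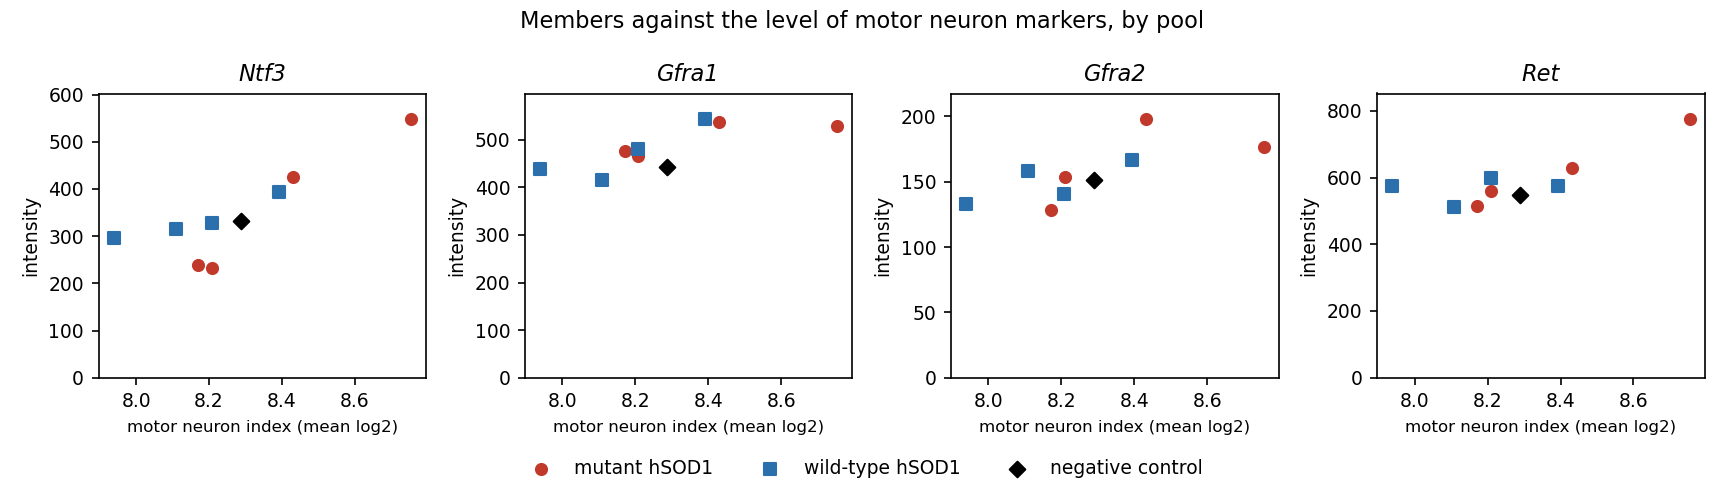
Intensity of Ntf3, Gfra1, Gfra2 and Ret (linear axes from 0) against the motor neuron index (mean log2 value of 6 markers), 1 point per pool, by group. Pools with a higher index tend to read higher, with r between 0.72 and 0.80 on log2 values over 9 arrays, and mutant pool 1 has the highest index.

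The intracellular and accessory genes of the same pathways were examined with 7 lists. Of 125 listed entries 101 were on the array and 72 above the filter. Of these 72, 43 were nominally higher in mutant than in wild-type pools, where 54.3% of all genes were. The other 29 were nominally lower, and 0 of the 72 passed the adjusted threshold. At an unadjusted limma p of 0.05, 2 were higher and 3 lower, where 4.93% of all tested probe sets passed in either direction. Those nominally higher and lower were 10 and 7 of 17 for the neurotrophin pathway, 4 and 4 of 8 for the GDNF family, 7 and 1 of 8 for gp130 cytokines, 6 and 7 of 13 for IGFs, 1 and 3 of 4 for HGF and Met, 6 and 4 of 10 for neuregulin and ErbB, and 9 and 3 of 12 for shared PI3K, AKT and MAP kinase steps.

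The genes with the smallest p in each list did not pass either (limma adjusted p = 0.929 for Rtn4r, Ncam1, Igfbp2, Cblb and Errfi1). Rtn4r, the Nogo receptor, averaged 62.2 ± 15.2 in mutant and 86.6 ± 16.6 in wild-type pools, with 89.8 in the control. Ncam1, an adhesion molecule that is an alternative GDNF receptor, averaged 149 ± 39.6 in mutant and 103 ± 27.5 in wild-type pools, with 146 in the control. Their log2 differences between mutant and wild-type pools were −0.44 and 0.51.

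Igfbp2, which binds IGFs outside the cell, averaged 15.4 ± 8.49 in mutant and 27.1 ± 4.71 in wild-type pools, with 16.1 in the control. Cblb, a ubiquitin ligase of receptor kinases, averaged 340.4 ± 7.15 in mutant and 414 ± 77.2 in wild-type pools, with 337 in the control. Errfi1, an inhibitor of ErbB kinases, averaged 362 ± 35.4 in mutant and 308 ± 27.8 in wild-type pools, with 341 in the control (SD, n = 4 each, for these genes). Their log2 differences were −0.66, −0.26 and 0.23. For gp130, Jak1, a kinase bound to the receptor, had a log2 difference of 0.19 and Socs1, a feedback inhibitor, −0.33; among shared steps the GTPase Nras had 0.17.

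Against the control, 32 of the 72 entries were nominally higher in both transgenic groups together, where 49.1% of all genes were. The other 40 were lower, and 0 of the 72 passed the adjusted threshold. At an unadjusted limma p of 0.05, which 3.12% of all tested probe sets reached, 5 entries passed. Spint2, an inhibitor of the proteases that activate HGF, was higher by 0.75 on the log2 scale, and the EGF receptor ligands Tgfa and Hbegf by 0.75 and 0.71. Nrg2, a further neuregulin, and the transcription factor Creb1 were lower, with log2 differences of −0.72 and −0.59. These 5 were named after their values were seen.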

How the data were processed

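Each array carried RNA of 1 pool of 5 embryos. Per the deposited table, the authors gave a linear intensity for every probe set and array (software and its settings: not given in the sources used here). A trimmed mean near 150.05 on every array points to scaling by the authors, read from the deposited values alone. Arrays have no read depth, and their number limits the precision.

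Names came from the platform annotation, which lists 1 symbol for 20826 probe sets, several for 436 and none for 9780. A pseudocount of 8.28 (the 25th percentile of the intensities) was added before log2. The filter dropped probe sets with a mean log2 value up to the 40th percentile, leaving 18625. These were tested by limma 3.58.1 in R 4.3.3 (lmFit, then eBayes with a trend), p-values were adjusted over all 18625 by Benjamini-Hochberg, and the threshold was 0.05. The fit of mutant against wild-type hSOD1 held 8 arrays; fits against the control held 9 and take the lone control to vary as the transgenic pools do. Counts of genes use the probe set of each gene that is brightest over the 9 arrays. The actin ratio and the correlations were tested by exact permutation.

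The members, the 7 pathway lists and the 11 marker lists were chosen with earlier results of these data known. Values by pool were planned for the 6 member probe sets with the smallest unadjusted p between mutant and wild-type pools and the 6 against the control; up to 3 genes per pathway list could be named, and Sod1 always. On simulated data with 18625 probe sets, mutant against wild-type recovered 84% of changes of 1 on the log2 scale and 85% of changes of 2, and mutant against control 52% and 84%. Changed probe sets that the filter dropped counted as not recovered. The simulation held 100 changes of each size at once, which eases the adjusted threshold. In the measured data 3 of all tested probe sets passed for mutant against wild-type and 0 for mutant against control. The recovered shares therefore do not give the recovery of a lone change. Unchanged probe sets called numbered 6 and 10 in these comparisons. The simulated noise was normal and held no difference in RNA quality between groups. The alternatives covered normalization (quantile, median), pseudocount (2.07 and 33.1), filter (none, 60th percentile), variance model (no trend, robust, array weights) and 1 probe set per gene. They also covered covariates (le2 tag, actin ratio), transgenic arrays with the tag alone, 9 arrays in 1 fit and a replicate block. Each transgenic array was left out in turn, and for the correlations also the control.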

Additional observations from a re-analysis of the deposited data

Results flagged for a closer look

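Of 70 groups of 4 pools examined among the member probe sets above the filter, 2 held a pool far from the other 3, and chance alone sets such a pool apart in about 1 in 20 groups. For Nrg1 1371212_at, wild-type replicate 1 had an intensity of 168, below the nearest pool of its group at 187.5. For Nrg1 1371218_a_at, wild-type replicate 4 had an intensity of 40.2, above the nearest pool of its group at 37.2. Both gaps span a small range of intensity, and no cause was tested.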

How the results depend on the processing

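Over 23 alternatives between mutant and wild-type hSOD1, and 21 against the negative control, 0 member probe sets passed the adjusted threshold in any comparison; the lowest adjusted p over these alternatives was 0.614 for mutant minus wild-type, 0.999 for mutant minus control, 0.782 for wild-type minus control and 0.963 for both groups minus control. The sign of the difference changed under at least 1 alternative for 23 of 35 probe sets between mutant and wild-type pools (61 of 776 values) and for 12 of 35 between both groups and the control (21 of 706 values). Values by alternative follow as log2 differences, and the cause of each change was not tested. With the actin ratio as a covariate, mutant minus wild-type turned to −0.039 for Igf2, 0.045 for Ngfr, −0.066 for Bdnf, 0.084 for Ntrk3, −0.095 for Nrg1 1369783_a_at, 0.049 for Igf1, 0.029 for Gfra3, 0.045 for Igf2r, −0.016 for Gfra1, −0.072 for Ntf3 and 0.10 for Igf1r; against the control Gfra3 turned to −0.044, and the ligand median of wild-type minus control moved to 0.23. Without the untagged transgenic arrays, mutant minus wild-type turned to 0.0016 for Ntrk3, −0.076 for Nrg1 1369783_a_at, −0.020 for Il6st and −0.25 for Ntf3, and both groups minus control to 0.035 for Ngfr and −0.076 for Ntf3. With the le2 tag as a covariate, both groups minus control turned to 0.14 for Cntf and −0.018 for Ntrk3. Array weights turned Bdnf to −0.011 between mutant and wild-type pools, and median centring turned Ngfr to 0.019 against the control. Leaving out 1 array at a time, mutant minus wild-type ran from −0.033 to 0.14 for Bdnf, −0.083 to 0.047 for Igf1r, −0.10 to 0.052 for Igf2r, −0.0087 to 0.083 for Il6st, −0.068 to 0.16 for Nrg1 1369783_a_at, −0.20 to 0.20 for Ntf3, −0.072 to 0.32 for Ntrk2 1370652_at and −0.11 to 0.035 for Ntrk3; both groups minus control ran from −0.0056 to 0.093 for Gfra2, −0.064 to 0.044 for Ngfr and −0.10 to 0.10 for Ntf3. Member probe sets at an unadjusted p of 0.05 were 0 in mutant minus wild-type and 1 in each comparison with the control. Between mutant and wild-type pools they became 2 without a filter, 1 with array weights, and 0 to 3 without 1 array (3 without mutant replicate 4). In mutant minus control they became 2 under quantile normalization, median centring, the lower pseudocount, no trend and either covariate, 3 without a filter, 0 with 1 probe set per gene, and 0 to 2 without 1 array. In wild-type minus control they became 2 under quantile normalization and the actin covariate, 3 under median centring and no trend, 0 with the le2 covariate, and 1 to 2 without 1 array. In both groups minus control they became 2 under median centring, no filter, no trend, array weights, the actin covariate and without the untagged arrays, 0 under the higher pseudocount, the stricter filter and the le2 covariate, and 0 to 2 without 1 array. Same-numbered pools of the mutant and wild-type groups deviated together only in part (correlations of 0.124, 0.0868, −0.0744 and 0.201), the labels do not pair them, and 2 of 4 mutant arrays and 3 of 4 wild-type arrays correlated best with their own number. With a replicate block 0 members passed the adjusted threshold and 1 reached an unadjusted p of 0.05.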
